A study of Homo sapiens with 11 samples.

Results

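Changes in mRNA expression of 10 genes were described in cells transfected with miR-365a-3p: SNAI1, SNAI2, ZEB1, TWIST1 and TCF3, which encode transcription factors of the epithelial-mesenchymal transition (EMT), and VIM, KRT7, KRT8, KRT18 and KRT19, which encode proteins of intermediate filaments. They were chosen by name, with earlier results of these data known, and they are 10 of the 31325 gene symbols measured on each array. The samples were cells of the breast cancer line MDA-MB-231 and of the ovarian cancer line SKOV3, both human, each transfected with miR-365a-3p or with a control miRNA. MDA-MB-231 cells had 3 arrays with miR-365a-3p and 3 with control miRNA, and SKOV3 cells had 3 arrays with miR-365a-3p and 2 with control miRNA. The sample labels place all arrays at 48 h of treatment, while the description of the series gives 24 h. The labels name the ovarian line SKOV3, while the methods of the study name its derivative SKOV3.ip1. From total RNA, cRNA labelled with biotin was made and hybridized to Illumina HumanHT-12 v4 BeadChips. Since nothing states that replicates came from separate transfections, the p-values below measure only the spread between these arrays, which may be technical.

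EMT is the passage of an epithelial cell, held to its neighbours by junctions, into a motile mesenchymal state. SNAI1, SNAI2, ZEB1, TWIST1 and TCF3 (the E proteins E12 and E47) bind short DNA elements named E-boxes, and they are best known for repressing CDH1 and other epithelial genes. The intermediate filaments of a simple epithelium are built from pairs of a type II keratin (KRT7, KRT8) and a type I keratin (KRT18, KRT19). Mesenchymal cells carry vimentin filaments instead, and many carcinoma lines in culture hold both kinds. Array data show mRNA, not the proteins or their filaments.

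The transfected miRNA is shown because its seed, bases 2 to 8 in capitals, is the part by which a miRNA pairs with its target mRNAs. The sequence is that of RefSeq on GRCh38.p14, where miR-365a-3p is at chr16:14309340-14309361 on the plus strand. A second locus, at chr17:31575478-31575499 on the plus strand, gives the mature miR-365b-3p with the same letters, so the mimic has the sequence of both. It was not tested here whether any of the 10 mRNAs holds a site for this seed.
miR-365a-3p: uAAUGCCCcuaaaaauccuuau

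Values are given on a scale taken as log2, after quantile normalization across the 11 arrays. This gives every array the same distribution, with a median of 7.38 and a 75th percentile of 7.80. Most symbols lie close together at the lower end of this range, and a value near 7.3 or 7.4 is called near the floor here. A log2 fold change understates the change of a gene that reaches the floor. The deposited values had been normalized before, but they did not share a distribution, and their 75th percentile moved with the treatment: it was 7.56 to 7.65 in MDA-MB-231 cells with miR-365a-3p against 7.86 to 7.93 with control miRNA, and 7.67 to 7.80 against 7.98 to 8.04 in SKOV3 cells. Values are on the quantile-normalized scale unless the deposited scale is named. Among markers of the 2 lines in the control arrays, ERBB2 had means of 7.61 in MDA-MB-231 and 10.9 in SKOV3 cells, and PAX8 had 7.40 and 8.18, whereas PGR (7.29 and 7.29), WT1 (7.37 and 7.36) and MUC16 (7.37 and 7.38) were near the floor in both. ESR1 had 7.28 in MDA-MB-231 and 8.83 in SKOV3 cells. EGFR had 7.86 in MDA-MB-231 and 7.63 in SKOV3 cells, CD44 had 11.3 and 10.5, FOXA1 had 7.56 and 7.47, and GATA3 had 7.40 and 7.28. The 9 markers of blood and endothelial cells reached at most 7.78 on any array. Of the 7 fibroblast markers the highest value on any array was 8.55, and COL1A1 had a mean of 8.51 in SKOV3 and of 7.46 in MDA-MB-231 control arrays.

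All 31325 symbols were fitted with limma, with 1 mean for each of the 4 groups, and a difference is called where the Benjamini-Hochberg adjusted p over all symbols is under 0.05. With miR-365a-3p in MDA-MB-231 cells, 3 of the 10 genes were called, against 26.1% of all symbols: KRT7 and KRT8 were higher, as were 14.4% of all symbols, and TCF3 was lower, as were 11.7%. In SKOV3 cells 2 of the 10 were called, against 14.4% of all symbols: KRT7 was higher, as were 7.25%, and TCF3 was lower, as were 7.11%. The shares among the 10 genes were thus not far from those of the whole array. Since whole cultures were measured, fewer cells with an mRNA and less of it in each cell cannot be told apart. KRT7 and TCF3 were called in both lines with the same sign, as were 11.2% of all symbols (5.76% higher and 5.39% lower). The median log2 fold change of the 10 genes was 0.02 in MDA-MB-231 and 0.04 in SKOV3 cells, beside 0.01 over all symbols in each line.

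**Figure D1:**
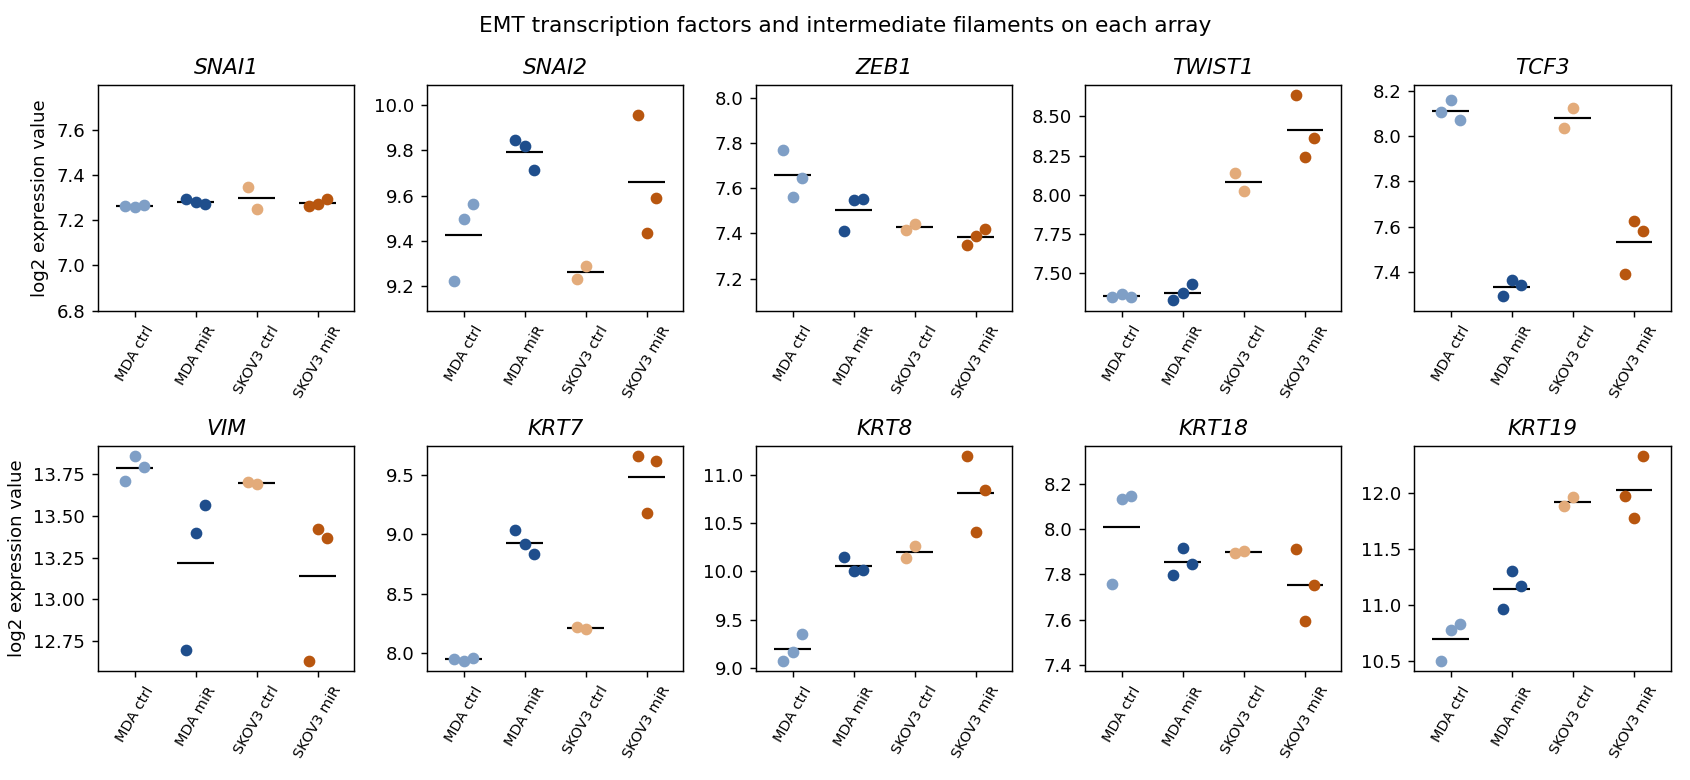
Value of each gene on each of the 11 arrays, on the log2 scale after quantile normalization (vertical axis, with its own range in each panel), by group (horizontal axis; MDA, MDA-MB-231 cells; ctrl, control miRNA; miR, miR-365a-3p). Points are arrays and lines are group means. For SNAI2, TCF3, VIM, KRT7 and KRT8 no array with miR-365a-3p overlaps the controls of its line, in both lines. Of these, only TCF3, KRT7 and KRT8 stay separated in both lines on the deposited values.

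TCF3 was the transcription factor with the clearest response. With control miRNA its values were 8.11, 8.16 and 8.07 in MDA-MB-231 and 8.04 and 8.12 in SKOV3 cells. With miR-365a-3p they were 7.29, 7.36 and 7.34 in MDA-MB-231 and 7.39, 7.62 and 7.58 in SKOV3 cells. No array with miR-365a-3p reached the lowest control array of its line, and in MDA-MB-231 cells the treated arrays were at the floor. TCF3 fell by 0.78 on the log2 scale in MDA-MB-231 cells (standard error 0.058, 95% interval -0.91 to -0.65, limma adjusted p = 3.98e-05), to 0.582 of the control level. The fall in SKOV3 cells was to 0.683 of the control level, or -0.55 on that scale (standard error 0.065, 95% interval -0.70 to -0.40, limma adjusted p = 0.000859). Exact permutation of the treatment among the arrays of each line, two-sided on the mean of the 2 responses, gave p = 0.005, the smallest that its 200 arrangements allow. The fall was called under each of the 19 other settings tried, in which it ranged from -0.93 to -0.65 in MDA-MB-231 cells and from -0.80 to -0.48 in SKOV3 cells.

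SNAI2 (Slug), a zinc finger repressor, had higher means with miR-365a-3p in both lines, but neither difference passed the threshold. Its values in MDA-MB-231 cells were 9.85, 9.82 and 9.71 against 9.22, 9.50 and 9.56 with control miRNA. In SKOV3 cells they were 9.96, 9.43 and 9.59 against 9.23 and 9.29. The log2 fold change was 0.37 in MDA-MB-231 cells (95% interval 0.07 to 0.67, limma adjusted p = 0.0777) and 0.40 in SKOV3 cells (95% interval 0.06 to 0.74, limma adjusted p = 0.121). The exact permutation test over both lines gave p = 0.01, not adjusted over the 10 genes. The 2 responses differed by 0.03 (95% interval -0.42 to 0.49). In MDA-MB-231 cells it was called when only symbols above the median mean were tested (adjusted p = 0.0417), when each line was fitted alone (0.0412), and without SKOV3 miR-365a-3p replicate 1 (0.0164) or replicate 2 (0.0471). In SKOV3 cells it was called without SKOV3 miR-365a-3p replicate 2 (log2 fold change 0.52, adjusted p = 0.0424). After quantile normalization no treated array overlapped the controls of its line. On the deposited scale the MDA-MB-231 groups did overlap, with 9.66, 9.78 and 9.56 against 9.25, 9.62 and 9.65, and the log2 fold change was 0.16 in MDA-MB-231 and 0.28 in SKOV3 cells.

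ZEB1, a zinc finger repressor, stood near the floor in SKOV3 cells and somewhat above it in MDA-MB-231 cells. In MDA-MB-231 cells its values were 7.41, 7.55 and 7.55 with miR-365a-3p and 7.77, 7.56 and 7.64 with control miRNA, so that the groups touched but did not overlap. The log2 fold change was -0.16 (95% interval -0.28 to -0.03, limma adjusted p = 0.0760). This call depends on the scaling: on the deposited values ZEB1 was lower by a log2 fold change of -0.30 with an adjusted p of 0.00169, with each array centred on its median by -0.27 (adjusted p = 0.00315), and after cyclic loess by -0.19 (adjusted p = 0.0247). It was also called with an intensity trend in the variance model (adjusted p = 0.0389) and without MDA-MB-231 control replicate 2 (log2 fold change -0.20, adjusted p = 0.0296). In SKOV3 cells ZEB1 was at 7.35, 7.39 and 7.42 against 7.42 and 7.44, a log2 fold change of -0.04 (limma adjusted p = 0.814). These groups overlapped, although they did not on the deposited values.

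TWIST1, a basic helix-loop-helix factor that pairs with E proteins, was near the floor in MDA-MB-231 cells, between 7.33 and 7.43 on all 6 arrays. There its log2 fold change was 0.02 (limma adjusted p = 0.917), but 0.27 (adjusted p = 0.0375) after cyclic loess and -0.01 on the deposited values. In SKOV3 cells its values were 8.63, 8.24 and 8.36 with miR-365a-3p against 8.14 and 8.03 with control miRNA. Each treated array was above both controls, and the log2 fold change of 0.33 lay at the threshold (standard error 0.096, 95% interval 0.11 to 0.55, limma adjusted p = 0.0520). It was called with dim symbols left out (adjusted p = 0.0304), with an intensity trend (0.0252), and without SKOV3 miR-365a-3p replicate 1 (log2 fold change 0.22, 0.0329) or replicate 2 (0.42, 0.0122). On the deposited values it was 0.04 (adjusted p = 0.834) and with arrays centred on their median 0.08, and on the deposited values the SKOV3 groups overlapped, so the difference depends on the scaling.

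SNAI1 (Snail), the zinc finger repressor most often used as an EMT switch, was near the floor throughout. All 11 values lay between 7.25 and 7.35, and its group means were within the lowest 16.2% of all symbols in every group. The log2 fold change was 0.02 in MDA-MB-231 cells (95% interval -0.04 to 0.07, limma adjusted p = 0.737) and -0.02 in SKOV3 cells (95% interval -0.09 to 0.04, limma adjusted p = 0.753). At such a signal a fall of SNAI1 was not detectable.

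Vimentin was among the brightest signals of the array in every group. After quantile normalization no value exceeds 13.95, which is close to the control values of VIM, so the size of its change may be understated. With control miRNA VIM was at 13.71, 13.86 and 13.79 in MDA-MB-231 cells and at 13.70 and 13.69 in SKOV3 cells. With miR-365a-3p it was at 12.69, 13.40 and 13.57 in MDA-MB-231 cells and at 12.63, 13.42 and 13.37 in SKOV3 cells. After quantile normalization no treated array reached the lowest control of its line, and in each line the array numbered 1 lay farther below the other treated arrays than those lay below the lowest control. The log2 fold change was -0.57 in MDA-MB-231 cells (95% interval -1.15 to 0.01, limma adjusted p = 0.158) and -0.55 in SKOV3 cells (95% interval -1.20 to 0.09, limma adjusted p = 0.293), and neither was called. The exact permutation test over both lines gave p = 0.015. Without both arrays numbered 1, a setting chosen after the values were seen, the difference was smaller and was called: -0.31 in MDA-MB-231 cells (limma adjusted p = 0.0101) and -0.30 in SKOV3 cells (limma adjusted p = 0.0282). After cyclic loess it was -1.06 in MDA-MB-231 cells (adjusted p = 0.0236), and on the deposited values it was -0.27 in SKOV3 cells. The groups overlapped in both lines on that scale: treated replicate 3 of MDA-MB-231 cells was at 13.81 and control replicate 2 at 13.67, and treated replicate 2 of SKOV3 cells was at 13.49 and control replicate 1 at 13.30.

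KRT7 rose in both lines, and after quantile normalization it had the largest response of the 10 genes in each. Its control values were 7.96, 7.93 and 7.96 in MDA-MB-231 and 8.22 and 8.21 in SKOV3 cells. With miR-365a-3p they were 9.04, 8.92 and 8.83 in MDA-MB-231 and 9.66, 9.18 and 9.62 in SKOV3 cells. The controls of each line lay within 0.03 of each other, and the nearest treated array was well above them. In MDA-MB-231 cells KRT7 was 1.97-fold higher, or 0.98 on the log2 scale (standard error 0.11, 95% interval 0.72 to 1.24, limma adjusted p = 0.000354). The rise in SKOV3 cells was 2.41-fold, or 1.27 on that scale (standard error 0.13, 95% interval 0.98 to 1.56, limma adjusted p = 0.000367). The exact permutation test gave p = 0.005, the smallest possible. KRT7 was called in both lines under all 19 other settings, with log2 fold changes from 0.64 to 1.03 in MDA-MB-231 cells and from 1.05 to 1.42 in SKOV3 cells. The lowest value in each line was that on the deposited scale.

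KRT8, the type II keratin that pairs with KRT18 in simple epithelia, was the other keratin of the 10 genes to rise. In MDA-MB-231 cells its values were 10.14, 10.01 and 10.01 with miR-365a-3p against 9.07, 9.17 and 9.35 with control miRNA. This was a 1.81-fold rise, or 0.86 on the log2 scale (standard error 0.17, 95% interval 0.47 to 1.25, limma adjusted p = 0.00566), and it was called under all 19 other settings (0.68 to 0.93). In SKOV3 cells the values were 11.19, 10.40 and 10.85 against 10.14 and 10.26. All treated arrays were above both controls, but replicate 2 was close to them, and the log2 fold change of 0.61 was not called (95% interval 0.18 to 1.05, limma adjusted p = 0.0690). It was called without that array (log2 fold change 0.82, adjusted p = 0.00474), with dim symbols left out (adjusted p = 0.0356) and with an intensity trend (adjusted p = 0.0482). The exact permutation test over both lines gave p = 0.01.

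KRT18, the partner of KRT8, showed no rise. Its values in MDA-MB-231 cells were 7.80, 7.92 and 7.85 with miR-365a-3p against 7.76, 8.13 and 8.15 with control miRNA. In SKOV3 cells they were 7.91, 7.59 and 7.75 against 7.90 and 7.90. The groups overlapped in both lines, although they did not on the deposited values. The log2 fold change was -0.16 in MDA-MB-231 cells (95% interval -0.41 to 0.10, limma adjusted p = 0.406) and -0.15 in SKOV3 cells (95% interval -0.43 to 0.14, limma adjusted p = 0.610). Both intervals leave out a rise as large as that of KRT8 in the same line. On the deposited values KRT18 was called lower in MDA-MB-231 cells (-0.48, adjusted p = 0.0269), as it was with arrays centred on their median (-0.44, adjusted p = 0.0326) and without MDA-MB-231 control replicate 1 (-0.29, adjusted p = 0.0410). For SKOV3 cells the deposited values gave -0.43 (adjusted p = 0.0807). In the RefSeq annotation of GRCh38.p14, KRT8 and KRT18 lie next to each other on chromosome 12, and KRT7 lies on the same chromosome between KRT80 and KRT86.

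The value of KRT18 is uncertain because the gene has many near-identical copies. The files list 11 symbols of KRT18 pseudogenes and 2 of KRT8 pseudogenes, and how probes shared by such copies were assigned is not given in the sources used here. Of the 11, 3 had a mean above 7.6, and all had lower means with miR-365a-3p in both lines. KRT18P13 fell in MDA-MB-231 cells, from 8.64, 9.16 and 9.26 to 8.23, 8.43 and 8.34 (log2 fold change -0.68, limma adjusted p = 0.0161), and in SKOV3 cells its log2 fold change was -0.63 (limma adjusted p = 0.0607). KRT18P28 had log2 fold changes of -0.50 (limma adjusted p = 0.0492) and -0.48 (limma adjusted p = 0.129). Those of KRT18P17 were -0.29 (limma adjusted p = 0.0805) and -0.34 (limma adjusted p = 0.0982). KRT8P9, by contrast, had 0.05 (limma adjusted p = 0.944) and 0.27 (limma adjusted p = 0.753), with control values in MDA-MB-231 cells spread from 8.49 to 9.57.

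KRT19, the type I keratin without a tail domain, was bright in both lines. In MDA-MB-231 cells its values were 10.96, 11.30 and 11.17 with miR-365a-3p against 10.50, 10.78 and 10.83 with control miRNA, without overlap. The log2 fold change of 0.44 did not pass the threshold (standard error 0.15, 95% interval 0.10 to 0.78, limma adjusted p = 0.0608), although it did with arrays centred on their median (0.50, adjusted p = 0.0446), with dim symbols left out (adjusted p = 0.0314), with each line alone (adjusted p = 0.0482), and without SKOV3 miR-365a-3p replicate 2 (adjusted p = 0.0381) or replicate 3 (adjusted p = 0.0244). In SKOV3 cells KRT19 was at 11.97, 11.77 and 12.33 against 11.88 and 11.96. Here the groups overlapped, and the log2 fold change was 0.10 (95% interval -0.28 to 0.48, limma adjusted p = 0.838), or 0.23 on the deposited values.

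**Figure D2:**
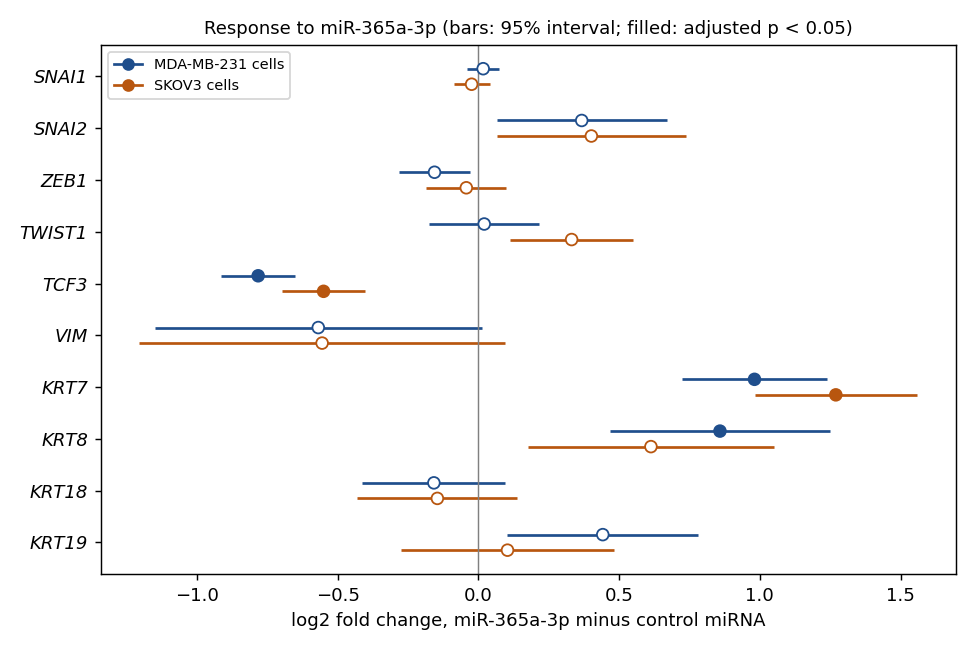
Log2 fold change of each gene with miR-365a-3p (horizontal axis) in MDA-MB-231 and SKOV3 cells; bars are 95% intervals and filled points have a limma adjusted p under 0.05. TCF3 (-0.78 and -0.55) and KRT7 (0.98 and 1.27) are filled in both lines, KRT8 in MDA-MB-231 cells, and the intervals of the 2 lines overlap for every gene.

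After quantile normalization treated and control arrays did not overlap for 8 of the 10 genes in MDA-MB-231 cells, against 38.0% of all symbols, and for 6 in SKOV3 cells, against 41.8%. Both held in the same direction for SNAI2, TCF3, VIM, KRT7 and KRT8, which is 5 of 10 against 23.6% of all symbols. The deposited values gave 7 in MDA-MB-231 cells (38.6% of all symbols), 6 in SKOV3 cells (44.3%) and 5 in both with the same direction (24.8%), and the 5 were ZEB1, TCF3, KRT7, KRT8 and KRT18. Only TCF3, KRT7 and KRT8 were thus separated in both lines on both scales. For the genes without an exact permutation p above, that test gave 0.025 for ZEB1, 0.08 for KRT19, 0.09 for TWIST1, 0.12 for KRT18 and 0.915 for SNAI1. All exact permutation p-values used the quantile-normalized values and were not adjusted over the 10 genes. The sign of the response was the same in the 2 lines for 9 of the 10 genes, SNAI1 being the exception, against 67.7% of all symbols, and for 8 of the 10 on the deposited values, against 70.2%. SNAI1 in MDA-MB-231 cells is among the 8, with values that all lay near the floor. These shares are over all symbols, many of them near the floor, whereas all of the 10 genes but SNAI1 had a mean above the median mean. No share among symbols of like signal was computed, so the counts do not show an excess. The difference between the 2 responses was tested as an interaction in the same fit, and 0 of the 10 genes were called by limma, against 2.54% of all symbols. At an unadjusted p under 0.05 there were 2: TWIST1 (SKOV3 response minus MDA-MB-231 response 0.31, adjusted p = 0.350) and TCF3 (0.23, 95% interval 0.03 to 0.43, adjusted p = 0.286), whose fall was the smaller one in SKOV3 cells. For KRT7 the difference was 0.29 (95% interval -0.10 to 0.67, limma adjusted p = 0.561), for KRT8 -0.25 (95% interval -0.83 to 0.34, limma adjusted p = 0.795) and for KRT19 -0.34 (95% interval -0.85 to 0.17, limma adjusted p = 0.628). Thus KRT8 and KRT19 are not shown to differ between the lines. Without SKOV3 miR-365a-3p replicate 1 the difference of TCF3 was called (0.30, adjusted p = 0.0273), and without SKOV3 miR-365a-3p replicate 2 that of KRT7 was called (0.44, adjusted p = 0.0281).

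The lines also differed with control miRNA alone. This comparison uses the same control arrays as the responses. Between the control arrays, 4 of the 10 genes were called, against 16.1% of all symbols, with 1 higher in MDA-MB-231 cells (7.76% of all symbols) and 3 lower (8.34%). These shares are not matched for signal. When only the 15662 symbols above the median mean were tested, 5228 were called, so the count does not show an excess. KRT19 was lower in MDA-MB-231 cells, at 0.429 of the SKOV3 level (log2 difference -1.22, limma adjusted p = 0.00108), and so were KRT8, at 0.498 of it (-1.01, limma adjusted p = 0.00651), and TWIST1 (-0.73, limma adjusted p = 0.000874), whose MDA-MB-231 arrays were at the floor. ZEB1 was higher in MDA-MB-231 cells by 0.23 (limma adjusted p = 0.0355), a call that was lost when any 1 of 7 arrays was left out (adjusted p = 0.0507 to 0.195). KRT8 lost its call without SKOV3 control replicate 2 (-0.94, adjusted p = 0.0637). The log2 difference was -0.27 for KRT7 (limma adjusted p = 0.245, but 0.0101 without SKOV3 miR-365a-3p replicate 2), 0.17 for SNAI2 (limma adjusted p = 0.631), 0.03 for TCF3 (limma adjusted p = 0.872), 0.09 for VIM (limma adjusted p = 0.931) and 0.11 for KRT18 (limma adjusted p = 0.729). With 3 arrays against 2, an exact test of a single gene cannot go below p = 0.1. Control arrays did not overlap for 6 of the 10 genes, against 44.0% of all symbols, a share that is not matched for signal either.

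Because the deposited distributions moved with the treatment, fold changes depend on the scaling, also for genes near the floor such as TWIST1 in MDA-MB-231 cells. After quantile normalization 4511 symbols were called higher and 3663 lower in MDA-MB-231 cells, and 2270 higher and 2228 lower in SKOV3 cells. On the deposited values the split was 2275 higher and 5620 lower in MDA-MB-231 cells, and 1201 and 4401 in SKOV3 cells, and with arrays centred on their median it was 3370 and 4879, and 1729 and 3630. For KRT7, KRT8, KRT19 and SNAI2 the response was positive and for TCF3, VIM and KRT18 it was negative under all 4 scalings in both lines. The sign of TWIST1 in MDA-MB-231 cells, of ZEB1 in SKOV3 cells and of SNAI1 in SKOV3 cells changed with the scaling. On the deposited scale 5 of the 10 genes were called in MDA-MB-231 cells (ZEB1, TCF3, KRT7, KRT8 and KRT18), against 7895 of all 31325 symbols.

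**Figure D3:**
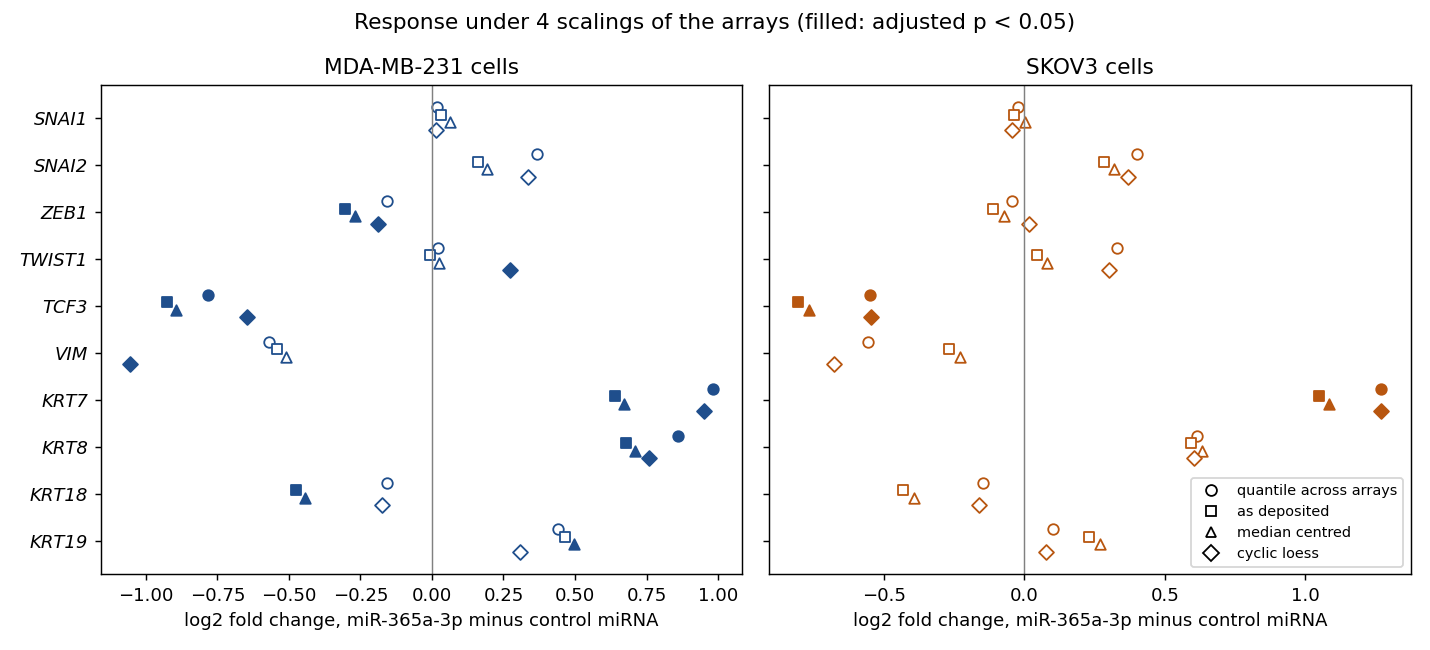
Log2 fold change of each gene with miR-365a-3p (horizontal axis) under 4 scalings of the arrays, in MDA-MB-231 and SKOV3 cells; filled symbols have a limma adjusted p under 0.05. TCF3 and KRT7 stay filled on their side of 0 under every scaling, whereas ZEB1, TWIST1, VIM, KRT18 and KRT19 are filled under some scalings in MDA-MB-231 cells.

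Genes around the 10 were described by lists, each with the genes measured, the number called and the median. Over all symbols, 14.4% were called higher and 11.7% lower in MDA-MB-231 cells, and 7.25% and 7.11% in SKOV3 cells. The counts of a list are a description, and no set test was run. TCF4, CD44, DSP, COL1A1, COL3A1, PDGFRB and FAP stand in more than 1 list. Of the 13 EMT transcription factors outside the 10 genes, 3 were lower and 0 higher in MDA-MB-231 cells (median log2 fold change -0.01). They were SOX9 (log2 fold change -1.51, limma adjusted p = 0.000111), FOXC1 (-0.99, limma adjusted p = 0.0229) and LEF1, a Wnt pathway factor (-0.68, limma adjusted p = 1.73e-06). FOXC1 lost its call without any 1 of 4 MDA-MB-231 arrays, replicates 1 and 2 with miR-365a-3p and replicates 2 and 3 with control miRNA (adjusted p = 0.0590 to 0.0824). In SKOV3 cells limma called 0 of the 13 (median -0.01), and 1 had an unadjusted p under 0.05. FOXC1 had a log2 fold change of -0.87 (limma adjusted p = 0.0959) there, while SOX9 (0.01) and LEF1 (-0.01) had control means of 7.33 and 7.33, at the floor. Of the 8 partners and inhibitors of the E proteins, 4 were higher and 1 lower in MDA-MB-231 cells (median 0.20), and 2 were higher and 0 lower in SKOV3 cells (median 0.09). Those higher included ID1, ID2 and ID3 in MDA-MB-231 cells and ID2 and ID4 in SKOV3 cells, which encode proteins that bind E proteins and keep them from DNA. ID3 rose by 1.93 in MDA-MB-231 cells (limma adjusted p = 8.59e-05), and its log2 fold change was 0.50 in SKOV3 cells (limma adjusted p = 0.126). ID2 rose in both lines, by 1.18 (limma adjusted p = 0.000372) and 0.88 (limma adjusted p = 0.00572), the latter not called without SKOV3 control replicate 2 (adjusted p = 0.0535). ID4 rose by 0.85 in SKOV3 cells (limma adjusted p = 0.00483), with 0.20 in MDA-MB-231 cells (limma adjusted p = 0.355). ID1 rose by 0.99 in MDA-MB-231 cells (limma adjusted p = 0.00145), with 0.17 in SKOV3 cells (limma adjusted p = 0.681). TCF12, another E protein, was the 1 that was lower in MDA-MB-231 cells (-0.80, limma adjusted p = 0.00208), and TCF12 and ID4 were named after their values were seen.

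Of 21 partners and regulators of the SNAI and ZEB repressors, 2 were higher and 9 lower in MDA-MB-231 cells (median -0.07), and 2 were higher and 7 lower in SKOV3 cells (median -0.03). SMARCA4, the ATPase of a chromatin remodelling complex, fell in both lines (log2 fold changes -2.49, limma adjusted p = 9.08e-06, and -2.27, limma adjusted p = 4.42e-05). SIN3A, the scaffold of a histone deacetylase complex, fell in both lines (log2 fold changes -1.41, limma adjusted p = 6.43e-05, and -1.18, limma adjusted p = 0.000589). SUZ12, a subunit of the polycomb repressive complex, fell by 1.61 in MDA-MB-231 cells (limma adjusted p = 0.00111) and had a log2 fold change of -0.78 in SKOV3 cells (limma adjusted p = 0.0863).

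Of the 34 epithelial genes, 7 of which had a mean above 8 over all arrays, 4 were higher and 2 lower in MDA-MB-231 cells (median 0.01), and 1 was higher and 6 lower in SKOV3 cells (median -0.01). On the deposited values these counts were 1 and 5, and 0 and 10, so the split in MDA-MB-231 cells turned with the scaling. EPCAM, an epithelial adhesion molecule, rose by 0.81 in MDA-MB-231 cells (limma adjusted p = 0.00678, but 0.49 and 0.0734 on the deposited values), with 0.34 in SKOV3 cells (limma adjusted p = 0.331). In SKOV3 cells KLF5, an epithelial transcription factor, fell by 1.15 (limma adjusted p = 0.00308, but 0.0590 with each line alone), and DSP, the desmosomal protein that anchors keratin filaments, fell by 0.85 (limma adjusted p = 0.000601). Their log2 fold changes in MDA-MB-231 cells were -0.41 (limma adjusted p = 0.0936) and -0.24 (limma adjusted p = 0.0683). CDH1 was near the floor in both lines and was called in neither response. In MDA-MB-231 cells its means were 7.31 with miR-365a-3p and 7.27 with control miRNA (log2 fold change 0.03, limma adjusted p = 0.450). In SKOV3 cells they were 7.35 and 7.43 (log2 fold change -0.07, limma adjusted p = 0.132). Between the control arrays 2 of the 34 were higher and 13 lower in MDA-MB-231 than in SKOV3 cells.

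The 32 mesenchymal genes included 15 with a mean above 8 over all arrays. Of the 32, 4 were higher and 15 lower in MDA-MB-231 cells (median -0.10), and 3 were higher and 13 lower in SKOV3 cells (median -0.14). With the deposited values 0 were higher and 16 lower in MDA-MB-231 cells, and 1 and 15 in SKOV3 cells, on a scale on which most calls over all symbols were falls. After cyclic loess the counts were 3 and 12, and 2 and 13. COL5A1, a fibrillar collagen chain, fell in both lines (log2 fold changes -2.04, limma adjusted p = 0.000395, and -3.13, limma adjusted p = 0.000163). CD44, a hyaluronan receptor, fell in both lines (log2 fold changes -2.52, limma adjusted p = 7.81e-05, and -1.43, limma adjusted p = 0.00491, the latter not called with the replicate block, adjusted p = 0.0682). MSN, which links the membrane to actin, fell in both lines (log2 fold changes -1.62, limma adjusted p = 0.000507, and -1.12, limma adjusted p = 0.0109). In SKOV3 cells MSN lost its call without either control array (adjusted p = 0.0777 and 0.0778) and with each line alone (adjusted p = 0.0895).

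Among the 35 other keratins, 5 were higher and 2 lower in MDA-MB-231 cells (median 0.03), and 1 was higher and 0 lower in SKOV3 cells (median 0.02). On the deposited values 2 were higher and 3 lower in MDA-MB-231 cells, so that split depends on the scaling. KRT81, a type II hair keratin, rose in both lines, by 1.15 (limma adjusted p = 2.65e-05) and 0.58 (limma adjusted p = 0.00277). KRT17, a type I keratin, rose by 0.40 in MDA-MB-231 cells (limma adjusted p = 0.00648), with 0.31 in SKOV3 cells (limma adjusted p = 0.0551). KRT80 fell by 0.82 in MDA-MB-231 cells (limma adjusted p = 0.00374), with a log2 fold change of -0.10 in SKOV3 cells (limma adjusted p = 0.851), next to KRT7 in the genome and opposite to it in sign.

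Of the 14 other intermediate filament proteins, 1 was higher and 3 lower in MDA-MB-231 cells (median -0.02), and 0 were higher and 1 lower in SKOV3 cells (median -0.04). LMNB2, a nuclear lamin, fell by 1.61 in MDA-MB-231 cells (limma adjusted p = 0.0156, but 0.0600 without miR-365a-3p replicate 1), with a log2 fold change of -0.93 in SKOV3 cells (limma adjusted p = 0.248). SYNM, which copolymerizes with vimentin, fell in both lines (log2 fold changes -0.22, limma adjusted p = 0.0115, and -0.51, limma adjusted p = 0.000674), although after cyclic loess it was not called in MDA-MB-231 cells (-0.11, adjusted p = 0.147). NEFH, a neurofilament, had 0.17 in MDA-MB-231 cells (limma adjusted p = 0.0428) after quantile normalization and -0.04 on the deposited values, so its direction is not settled. A list of filament linkers had 13 measured genes, not all of which encode proteins that link filaments to membranes, junctions or other filaments. Of the 13, 0 were higher and 6 lower in MDA-MB-231 cells (median -0.24), and 0 were higher and 5 lower in SKOV3 cells (median -0.13). At an unadjusted p under 0.05 these counts were 0 and 8, and 0 and 7. In MDA-MB-231 cells the 8 include AIFM1 (log2 fold change -0.19, limma unadjusted p = 0.0377), which encodes no such linker. PNN, a nuclear and desmosome-associated protein, fell by 1.05 in MDA-MB-231 cells (limma adjusted p = 0.000599), with a log2 fold change of -0.49 in SKOV3 cells (limma adjusted p = 0.0647). MACF1, a cytoskeletal linker of the plakin family, fell in both lines (log2 fold changes -0.70, limma adjusted p = 2.66e-06, and -0.45, limma adjusted p = 6.65e-05). Of the 10 markers of the lines, 0 were higher and 3 lower in MDA-MB-231 cells and 0 were higher and 4 lower in SKOV3 cells. Of the 9 blood and endothelial markers 1 was higher in MDA-MB-231 cells and 0 were called in SKOV3 cells (0 also at an unadjusted p under 0.05), and of the 7 fibroblast markers 1 was higher and 2 lower, and 1 higher and 1 lower. The part of these markers in any result was not tested.

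**Figure D4:**
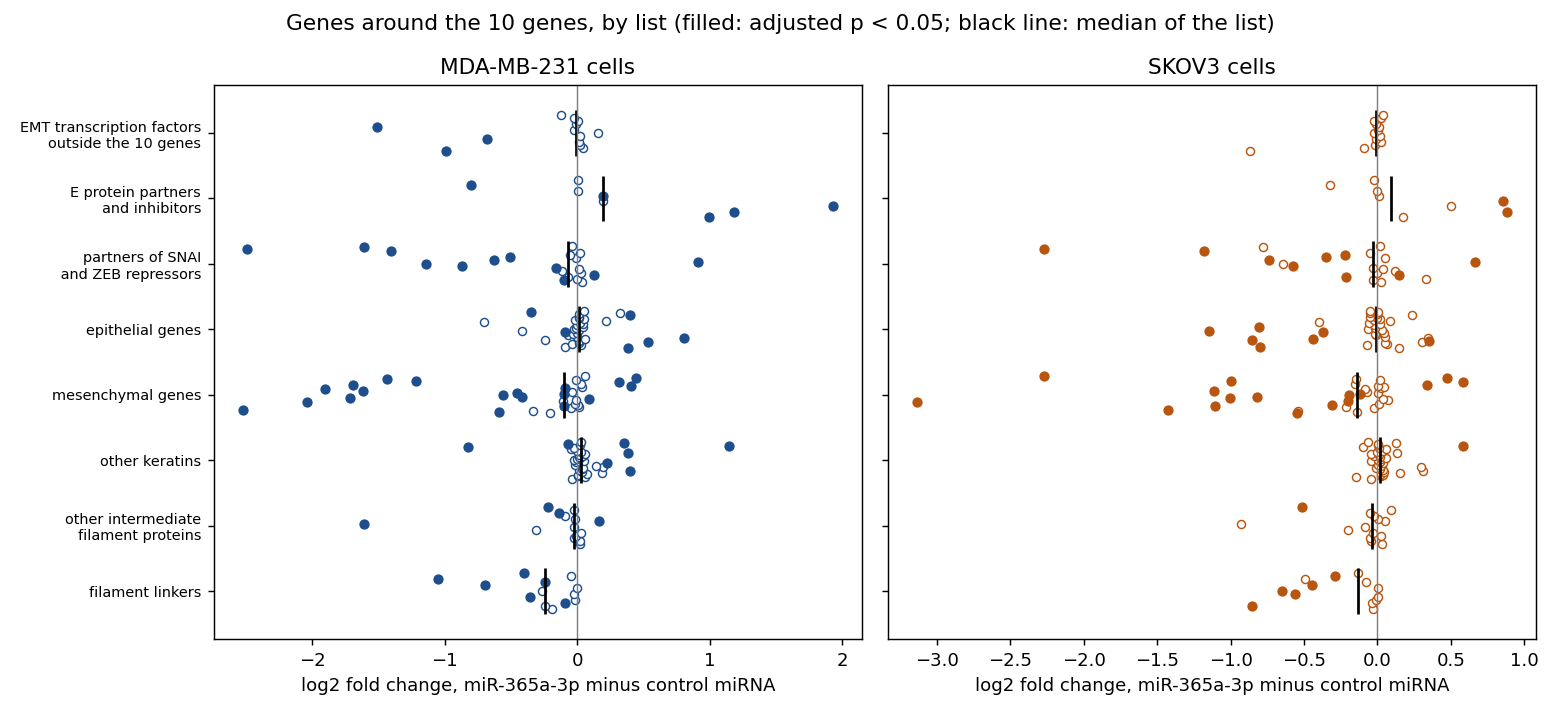
Log2 fold change with miR-365a-3p (horizontal axis) of every measured gene of the 8 lists around the 10 genes, in MDA-MB-231 and SKOV3 cells; points are genes, filled where the limma adjusted p is under 0.05, and black lines are list medians. The medians lie between -0.24 and 0.20, and the mesenchymal list has 15 and 13 filled points below 0 against 4 and 3 above.

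The symbols whose pattern was most like each gene were found by Pearson's r over the 11 arrays after the mean of each cell line was taken off, among symbols above the median mean. These arrays share the treatment, so such r values describe a common response and were not tested. TCF3 was matched most closely by ZAK (r = 0.999) and GATAD2A (0.996), and KRT7 by GLIPR1 (0.993) and LOC100132352 (0.987). KRT8 was matched by RAG1AP1 (0.993) and GALM (0.992), VIM by EIF3L (0.987) and EEF2 (0.981), SNAI2 by LOC730820 (0.984) and SNORA10 (0.982), and KRT19 by EXOSC7 (0.955) and DRG1 (0.949). The closest match of KRT18 was YBX1 (0.949), that of ZEB1 was PAFAH1B1 (0.970), that of TWIST1 was FAM25A (0.978) and that of SNAI1 was SGSM3 (0.824). None of the 10 genes was among the 2 closest matches of another.

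E-boxes were searched in RefSeq promoters on GRCh38.p14, each 300 bases from 250 before to 50 after a gene's start, as CAGGTG or its complement CACCTG and as the wider CANNTG, which includes both. Of 35116 promoters, 20.6% held CAGGTG or CACCTG and 68.7% held CANNTG. The table has promoters of 4 of the 10 genes. CAGGTG or CACCTG was in 2 of 7 promoters of ZEB1 and in none of those of TCF3, VIM and KRT8, and CANNTG was in 4 of the 7 of ZEB1 and, in 3 places, in that of KRT8. Of the epithelial genes, 19 had an entry, with 28 promoters in all, of which 16 held CAGGTG or CACCTG and 21 held CANNTG. Counted by gene, 14 of the 19 had CAGGTG or CACCTG in an entry. Promoters of the same gene are not independent, the list was chosen by name, and these counts were not tested against all promoters. They do not show an excess. A match of letters does not show that a factor binds there.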

How the data were processed

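Gene expression was measured on 11 Illumina HumanHT-12 v4 BeadChips, and the labels of the samples gave the 4 groups. Quantile normalization with lumi was done by the authors, who deposited 1 value, taken as log2 here, for each of 31325 gene symbols and array. Whether the transformation was log2 or variance-stabilizing, how probes of a gene were combined and whether background was subtracted is not given in the sources used here. If it was variance-stabilizing, the folds and shares of a control level given on the linear scale do not hold as printed. The number of arrays limits the precision, and detection values were not used here. A current symbol of the RefSeq gene table of GRCh38.p14 was found for 17755 of them and a single older symbol for 3305. All 10 genes described are current symbols, and the table was used for names and neighbours only.

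Quantile normalization across the 11 arrays was repeated on the deposited values, which were then fitted with lmFit and eBayes of limma 3.58.1 in R 4.3.3, with 4 group means, Benjamini-Hochberg adjustment over all symbols and a threshold of 0.05. The contrasts were miR-365a-3p minus control in each line, their difference, and the difference between the control arrays. Single genes were tested by exact permutation in Python 3.11.15. The fit was tested on simulated data.

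The 10 genes, the 8 gene lists, the 3 marker lists and the tests were chosen with earlier results of these data known. From each list the text names up to 3 genes, those with the largest absolute mean of the 2 log2 fold changes among genes called in at least 1 line. Besides all 10 genes it names up to 2 symbols of most like pattern for each and the line markers. The pseudogene symbols, TCF12, ID4 and CDH1 were named after their values were seen.

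Other settings tried were the deposited values, centring of each array on its median, cyclic loess, only symbols above the median mean, each line alone, the replicate number as a block, an intensity trend with robust hyperparameters, and each array left out in turn. Added after seeing the data were a fit without the arrays numbered 1 of both miR-365a-3p groups and a block shared by same-numbered miR-365a-3p arrays of both lines. Seed sites were not searched, for want of transcript sequences.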

Additional observations from a re-analysis of the deposited data

Results flagged for a closer look

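The responses of 8 genes named beside the 10 differed between the lines by limma's test of the difference itself (SKOV3 response minus MDA-MB-231 response, adjusted over all 31325 symbols). For SOX9 the difference was 1.521 (adjusted p = 0.00663) and for LEF1 0.6708 (adjusted p = 9.83e-05), with both genes near the floor in SKOV3 control arrays. For PAX8 it was -0.6672 (adjusted p = 9.61e-05), with PAX8 near the floor in MDA-MB-231 control arrays. For ID3 it was -1.424 (adjusted p = 0.0230) and for KRT81 -0.5668 (adjusted p = 0.0436). For DSP it was -0.6132 (adjusted p = 0.0418), with means in MDA-MB-231 cells of 7.63 with control miRNA and 7.39, near the floor, with miR-365a-3p. For MACF1 it was 0.2501 (adjusted p = 0.0199) and for EGFR 0.2583 (adjusted p = 0.0182). With miR-365a-3p both were near the floor in both lines (MACF1 7.37 and 7.44, EGFR 7.36 and 7.39), from control means of 8.07 and 7.89 for MACF1 and 7.86 and 7.63 for EGFR, so these differences cannot be told apart from those of the control levels. None of the 10 genes was called by this test.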

How the results depend on the processing

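KRT7 and TCF3 in both lines and KRT8 in MDA-MB-231 cells kept their direction and their call under all 19 alternatives. The number of the 10 genes called in MDA-MB-231 cells was 3, against 5 on the deposited values, 6 with arrays centred on their median, 6 after cyclic loess, 5 with only symbols above the median mean (15662 symbols, without SNAI1), 5 with each line alone, and 3 to 5 when 1 array was left out. Over all 31325 symbols the main fit called 8174, and the 3 other scalings called 7895, 8249 and 7966. Each line alone called 7704. Above the median mean, 8327 of the 15662 symbols were called, so a larger share of all tested symbols was called there too. In SKOV3 cells the number of the 10 genes called was 2, against 4 with only symbols above the median mean, 4 with an intensity trend, 4 without both miR-365a-3p arrays numbered 1 (chosen after seeing the data), and 2 to 5 when 1 array was left out. Over all 31325 symbols the main fit called 4498 there, the intensity trend 4774, and the fit without both arrays numbered 1 called 4360. Above the median mean, 5132 of the 15662 symbols were called. For the difference between the responses the number of the 10 genes called was 0, against 1 (TCF3) without both arrays numbered 1 and 0 to 1 when 1 array was left out. Between the control arrays 4 of the 10 genes were called, and 2 to 4 when 1 array was left out, with 2 without SKOV3 control replicate 2.

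Over all symbols, leaving out 1 array moved the number called from 8174 to between 6569 and 8678 in MDA-MB-231 cells, from 4498 to between 1775 (without SKOV3 control replicate 2) and 5002 in SKOV3 cells, from 796 to between 301 (without SKOV3 control replicate 1) and 1225 for the difference, and from 5043 to between 3023 and 5680 between the control arrays. Each line alone gave 2825 in SKOV3 cells, where fewer arrays estimate the spread. Without both arrays numbered 1 the difference had 1274.

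Within a line, same-numbered treated and control arrays did not deviate together: the correlation of their deviations from the group means, over 6853 symbols with a mean above 8, was between -0.125 and 0.232. Across the lines, it was 0.695, 0.311 and 0.344 for the miR-365a-3p arrays numbered 1, 2 and 3, although MDA-MB-231 replicate 3 correlated more with SKOV3 replicate 2 (0.635), and 0.124 and -0.13 for the control arrays. A replicate block shared by the miR-365a-3p arrays of both lines, added after the data were seen, gave 1336 symbols called for the difference and 0 of the 10 genes. With the replicate block within lines the difference had 123 symbols called, and KRT19 in MDA-MB-231 cells was called (adjusted p = 0.0141). Between the control arrays the block was the replicate number over both lines, and ZEB1 was not called (adjusted p = 0.101). With these blocks no other call of the 10 genes changed.

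Reversed signs were NEFH in MDA-MB-231 cells (-0.03941 on the deposited values and -0.007108 with arrays centred on their median), PAX8 in MDA-MB-231 cells (0.1066 after cyclic loess) and LEF1 in SKOV3 cells (0.153 after cyclic loess). Of 1954 recomputed log2 fold changes, 1835 kept their side of the threshold, of which 57 changed sign with an absolute value of at most 0.249, while 38 lost a call and 77 gained one. Where no value above is the cause by construction, the cause was not tested.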
